A study of Mus musculus with 6 samples.

Results

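Glycolysis and glycogen metabolism were followed through 36 genes of mouse hind leg muscle, chosen by name from the 16759 genes that the deposited table lists. They comprised 18 genes of glycolysis and its glycerol phosphate branch, 11 genes of glycogen metabolism, 2 glucose transporters and 5 genes that control the flow through fructose bisphosphate. All 36 were listed in the table. RNA came from the hind leg muscles of 3 control (Con) and 3 exercised (EX) male C57BL/6J mice that were 8 weeks old when the study began, with 1 library per mouse. Con mice did no treadmill training. EX mice ran on a treadmill in daily sessions of 60 min, on 5 days of each week over 6 weeks, covered 22 km each, and were killed 24 h after their last session. The sources used here name no transgene or deletion in these mice. The mice were perfused with buffered saline and visible fat between the muscles was taken away. The muscle that each piece of tissue came from is not given in the sources used here.

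Glycolysis turns glucose into pyruvate in the cytosol and yields ATP without oxygen, and fast muscle fibres rely on it during hard work. Glycogen is the glucose store of the fibre: phosphorylase releases sugar from it, glycogen synthase builds it up, and phosphorylase kinase and protein phosphatase 1 set the balance between them. Muscle runs many of these steps with isoenzymes of its own, while other cell types of the tissue use the widely expressed forms.

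The deposited counts on genes totalled between 13845362 and 15585048 in the Con libraries and between 16080487 and 16240431 in the EX libraries. Levels are given as CPM, the counts of a library scaled to a common total, after TMM normalization, which corrects the library sizes for a shift shared by most genes. A gene was called higher or lower in EX when edgeR's quasi-likelihood test over 10883 genes gave a Benjamini-Hochberg adjusted p-value under 0.05. The p-values measure the spread between these 6 mice. All 8 markers of the muscle fibre were detected in every library, with 3 called higher and 1 lower. Acta1, the skeletal muscle actin, was among those called higher (log2 difference 0.22, edgeR adjusted p = 3.4e-06). It lay between 34261 and 35528 CPM in Con and between 39689 and 41784 CPM in EX. The tissue also held transcripts of other cells. Macrophage markers summed to 40.5 to 44.8 CPM in Con and 74.8 to 82.0 CPM in EX, with 6 of 7 tested genes called higher. Fibroblast and tendon markers lay at 1000.2 to 1040.7 CPM in Con and 1392 to 1414 CPM in EX, with 6 of 8 called higher. Endothelial markers lay at 698 to 718 CPM in Con and 613 to 631 CPM in EX, with 5 of 8 called lower and 1 called higher. Schwann cell markers lay at 112 to 124 CPM in Con and 85.7 to 89.4 CPM in EX, with 4 of 5 called lower. Of the adipocyte markers, 4 of 5 were called higher, and of the red cell markers 1 of 5. Over all genes tested, 9.11% were called higher and 8.8% lower. In bulk tissue, fewer cells of a type and less RNA per cell cannot be told apart.

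Of the 36 members, 35 passed the filter on low values (a mean of at least 1 FPKM), and 13 of these were higher and 2 lower in EX muscle. Over all genes tested, 9.11% were called higher and 8.8% were called lower, against 37.1% and 5.71% of the members. Most members are abundant. Among the 25 members with a mean of at least 100 CPM, 13 or 52% were called higher and 2 or 8% lower, where 23.1% and 13.2% of all genes at that level were. The rises were small, between 7.62% and 46.9%, and their median was 0.15 on the log2 scale. The median log2 fold change was 0.05 over the members and -0.001 over all genes tested. For 21 members, or 60%, the EX libraries lay wholly above or wholly below the Con libraries, compared with 33.7% of all genes tested. The zero line of the small changes depended on the scaling. On TPM, where counts per length are scaled to the same sum in every library, the median log2 fold change was -0.09 over all genes and -0.04 over the members. The shift is that of the median, and how far single genes shared it was looked at only in the 35 tested members. Relative to it, the median of the members was 0.05 as in the main fit, the largest difference of a member from its main value was 0.03, and Pfkp alone turned sign, to -0.01. Both scales start from the same counts, so this likeness was largely built in and does not show which zero line is right. Without the shift subtracted, limma on TPM called 4 members higher and 6 lower, or 11.4% and 17.1%, where 3.12% and 15.5% of all genes were called. The other 9 members called higher by edgeR did not pass on TPM, with adjusted p-values from 0.052 for Gpd1 to 0.97 for Phkg1, while their changes relative to all genes were as in the main fit (0.19 for Gpd1, 0.15 for Hk2, 0.14 for Aldoa and 0.09 for Phkg1). On FPKM, 8 of these 9 did not pass, all but Gpd1. Values on TPM in what follows include the shift of the median unless said otherwise, and "relative to all genes" means with that median subtracted. Pgk1, Pgam2, Eno1, Ppp1r3c and Pfkfb3 passed in all 15 alternative fits, and only these 5 did so among the 15 called members.

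**Figure D1:**
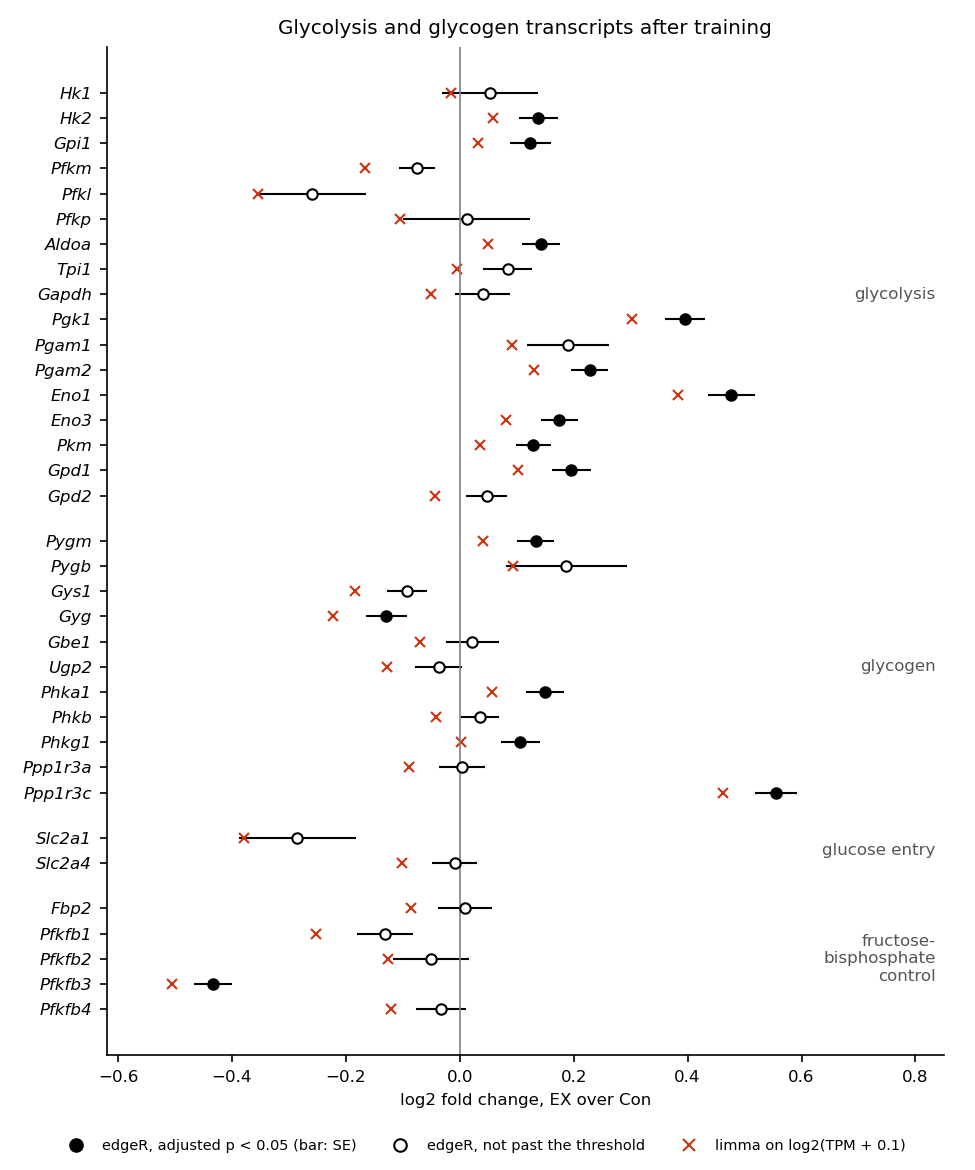
The plot gives the log2 fold change of EX over Con for the 35 tested members, in the order of the pathway. Points are edgeR estimates with their standard error, filled where the adjusted p-value was under 0.05. Crosses are limma estimates on log2(TPM + 0.1), which lie to the left of the points throughout, by about the -0.09 that the median of all genes shifted.

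The sequences just upstream of the transcription starts of these 5 genes are shown because they kept their call in every fit tried. They are the bases before the annotated RefSeq start on GRCm38.p6, written 5′ to 3′ on the strand of the gene. Pgk1 starts next to chrX:106186850-106187099 on the plus strand, and Pgam2 next to chr11:5803797-5804046 on the minus strand. For Eno1, with 3 annotated starts, the most upstream was used, at chr4:150236458-150236707 on the plus strand. For Ppp1r3c, chr19:36736654-36736854 on the minus strand is shown without the 49 bases that overlap an exon. For Pfkfb3, with 2 annotated starts, chr2:11554078-11554179 on the minus strand is shown for the more upstream start, without 148 bases that overlap an exon. Capitals mark ACGTG on either strand, the core of the element bound by hypoxia-inducible factors. The window of Pgk1 held 2 matches, that of Ppp1r3c held 3 of which 2 lie over each other in a CACGTG, and the other 3 sequences held none.
Pgk1: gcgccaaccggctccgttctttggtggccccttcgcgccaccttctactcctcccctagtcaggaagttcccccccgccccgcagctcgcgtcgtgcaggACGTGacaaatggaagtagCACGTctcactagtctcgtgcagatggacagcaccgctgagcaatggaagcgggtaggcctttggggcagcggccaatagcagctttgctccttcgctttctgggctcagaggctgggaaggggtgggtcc
Pgam2: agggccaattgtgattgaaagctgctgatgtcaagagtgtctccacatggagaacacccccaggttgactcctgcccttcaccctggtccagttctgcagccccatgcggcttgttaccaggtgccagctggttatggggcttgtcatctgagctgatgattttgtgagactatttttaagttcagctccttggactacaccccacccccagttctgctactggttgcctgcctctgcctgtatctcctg
Eno1: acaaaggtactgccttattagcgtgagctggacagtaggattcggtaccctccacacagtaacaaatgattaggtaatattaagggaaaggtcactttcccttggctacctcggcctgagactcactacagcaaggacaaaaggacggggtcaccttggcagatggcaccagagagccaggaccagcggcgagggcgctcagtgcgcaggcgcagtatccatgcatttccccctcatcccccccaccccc
Ppp1r3c: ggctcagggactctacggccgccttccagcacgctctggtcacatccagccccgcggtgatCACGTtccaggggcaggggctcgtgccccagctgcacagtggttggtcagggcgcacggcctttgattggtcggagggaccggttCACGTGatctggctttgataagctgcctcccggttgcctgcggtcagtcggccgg
Pfkfb3: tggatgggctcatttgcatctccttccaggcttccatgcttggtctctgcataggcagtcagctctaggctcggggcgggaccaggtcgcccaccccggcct

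Promoter windows of 250 bases were listed for 34 of the 36 members, and Gpd1 and Slc2a4 had no entry. ACGTG stood on either strand in at least 1 window of 15 members, or 44.1%, and in 18.5% of the 27025 genes with a window. Counted by window, because a gene can have several starts, the shares were 36.5% of 52 member windows and 16.6% of 32851 in all. The longer CACGTG, an E-box that contains ACGTG, was found for 5 members, or 14.7%, and for 6.86% of all genes. The core of the MEF2 site, CTA and TAG with any 4 bases between them, was found for 2 members, or 5.88%, and for 3.7% of all genes. These matches describe letters in a window. The 27025 genes were not limited to those expressed in this muscle, nor matched to the members in level or base composition. The difference in shares therefore cannot be laid to the pathway. No binding was measured here.

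Glycolysis was the group with the largest number of calls. Of its 17 tested members, 9 or 52.9% were called higher and none lower, by edgeR at an adjusted p-value under 0.05. Over all genes tested, 9.11% were called higher, and 23.1% of those with a mean of at least 100 CPM. The median log2 fold change of the group was 0.13. Its 3 largest rises among tested members lay in the second stage of the pathway, in which ATP is made. On TPM, Pgk1, Pgam2 and Eno1 were called higher in this group and Pfkm was called lower.

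Pgk1 (gene 18655) encodes phosphoglycerate kinase, the enzyme of the first ATP-yielding step. It was at 1254, 1359 and 1361 CPM in the Con libraries and at 1730.4, 1751 and 1743 CPM in the EX libraries. The EX values were close to each other and well above all Con values. The difference was 0.40 ± 0.04 on the log2 scale (estimate ± SE, adjusted p = 2.1e-09), or 31.5%.

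Phosphoglycerate mutase, the next enzyme, has a muscle form encoded by Pgam2 (gene 56012) and a brain form encoded by Pgam1 (gene 18648). Pgam2 was at 1898, 1998 and 1950.0 CPM in Con and at 2227, 2302 and 2317 CPM in EX, with no overlap. It rose by 17.1% (log2 difference 0.23 ± 0.03, adjusted p = 8.2e-06). Pgam1 was at 22.3, 20.4 and 20.7 CPM in Con and at 24.8, 21.8 and 25.5 CPM in EX. Its groups overlapped, and its log2 difference of 0.19 ± 0.07 did not pass (adjusted p = 0.069). Without Con replicate 1 (adjusted p = 0.036) or EX replicate 2 (adjusted p = 0.025), it passed.

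Enolase makes phosphoenolpyruvate, and Eno3 (gene 13808) encodes its muscle form while Eno1 (gene 13806) encodes the form of most other tissues. Eno1 was at 97.0, 98.7 and 98.5 CPM in Con and at 136, 133 and 139.6 CPM in EX. These values were tight within each group and far apart between them, with a rise of 39.2% (log2 difference 0.48 ± 0.04, adjusted p = 1.5e-09). The counts of Eno1 were not whole in 5 of the 6 libraries, so part of its reads was assigned by estimate. Eno3, far more abundant per length, was at 6592, 6906 and 6762 CPM in Con and at 7483, 7890 and 7503 CPM in EX. It rose by 12.9% without overlap (log2 difference 0.18 ± 0.03, adjusted p = 2.2e-04), though on TPM the difference was 0.08 with an adjusted p of 0.13. The macrophage sum and the fibroblast and tendon sum given above were higher in EX like Eno1, as were 4 of 5 tested adipocyte markers. The endothelial and Schwann cell sums were lower. Of the 8 fibroblast and tendon markers, the 2 that were not called had lower means in EX. The part of these cell types in the rise of Eno1 was not tested.

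Hk2 (gene 15277) encodes the hexokinase of muscle that commits glucose to the cell by phosphorylating it. It was at 529.7, 515 and 528 CPM in Con and at 569, 579 and 582 CPM in EX, and the groups did not overlap. The rise was 10.0% (log2 difference 0.14 ± 0.03, adjusted p = 0.0042), and on TPM the difference was 0.06 (adjusted p = 0.27). Hk1 (gene 15275), the widely expressed hexokinase, stood at 14.7, 16.7 and 14.3 CPM in Con and at 15.7, 16.9 and 14.9 CPM in EX. Its groups overlapped and its log2 difference was 0.05 ± 0.09 (adjusted p = 0.72).

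Gpi1 (gene 14751), the isomerase that follows hexokinase, was at 1255, 1169.6 and 1141 CPM in Con and at 1278, 1306 and 1300.2 CPM in EX. The lowest EX value was barely above the highest Con value, and the rise was 8.96% (log2 difference 0.12 ± 0.04, adjusted p = 0.014). The call rested on few libraries, because it was lost without Con replicate 2 (adjusted p = 0.087), Con replicate 3 (0.094), EX replicate 2 (0.058) or EX replicate 3 (0.079), and on TPM the difference was 0.03 (adjusted p = 0.58).

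Pfkm (gene 18642) encodes the muscle subunit of phosphofructokinase, the main control point of glycolysis. It went against its neighbours, at 6562, 6309.7 and 6323 CPM in Con and at 6035, 6182 and 6010.1 CPM in EX. All EX values lay below all Con values, but the log2 difference of -0.07 ± 0.03 did not pass (adjusted p = 0.098). It passed when scaled without the 20 most abundant genes (adjusted p = 0.019) and on TPM, where the difference was -0.17 (adjusted p = 0.008), or -0.08 relative to all genes. The liver subunit Pfkl (gene 18641) was at 16.4, 15.0 and 15.1 CPM in Con and at 15.2, 11.3 and 12.2 CPM in EX, with a log2 difference of -0.26 ± 0.10 (adjusted p = 0.059). These groups overlapped through EX replicate 1, and without it the difference passed at -0.39 (adjusted p = 0.0068). It also passed with the scaling without the 20 most abundant genes (-0.28, adjusted p = 0.036). The platelet subunit Pfkp (gene 56421) was at 7.68, 7.51 and 7.78 CPM in Con and at 7.19, 7.90 and 8.06 CPM in EX, with overlap (log2 difference 0.01 ± 0.11, adjusted p = 0.96).

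Aldoa (gene 11674), the muscle aldolase that splits the sugar, had the highest level of all members per length. It was at 18461, 17346 and 17028 CPM in Con and at 18888, 19718 and 19747 CPM in EX. The groups did not overlap, and the rise was 10.4% (log2 difference 0.14 ± 0.03, adjusted p = 0.0024). On TPM the difference was 0.05 with an adjusted p of 0.37. Aldoc (gene 11676), an aldolase known from brain, was under the filter, with 9, 8 and 5 counts in Con and 17, 26 and 20 counts in EX. All EX counts were above all Con counts, and in the edgeR fit without a filter the log2 difference was 1.45 ± 0.35 (adjusted p = 0.0024). The macrophage sum, the fibroblast and tendon sum and 4 of 5 tested adipocyte markers were higher in EX like Aldoc, while the endothelial and Schwann cell sums were lower. The part of these cell types in the values of Aldoc was not tested.

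Tpi1 and Gapdh, which follow aldolase, depended on a single library. Tpi1 (gene 21991), triosephosphate isomerase, was at 3012, 2500.2 and 2702 CPM in Con and at 2857, 2957 and 2895 CPM in EX. Gapdh (gene 14433), the dehydrogenase that served as the reference in the study's PCR and protein blots, was at 13058, 11182 and 10716 CPM in Con and at 12012, 12557 and 11361 CPM in EX. In both, Con replicate 1 was the highest of all 6 libraries, and the groups overlapped. Con replicate 1 lay above the mean of the other 2 Con libraries by 0.25 on the log2 scale for Gapdh and by 0.21 for Tpi1, against a median of 0.04 over the 35 members. The log2 differences were 0.04 ± 0.05 for Gapdh (adjusted p = 0.62) and 0.08 ± 0.04 for Tpi1 (adjusted p = 0.19). Without Con replicate 1 they passed, at 0.13 for Gapdh (adjusted p = 0.0023) and 0.15 for Tpi1 (adjusted p = 1.9e-04). Without Con replicate 3, Gapdh turned to -0.02, and on TPM both were below 0, at -0.05 for Gapdh and -0.01 for Tpi1, but above 0 relative to all genes, at 0.04 and 0.09. The counts of Gapdh, a gene with many processed pseudogenes, were not whole in any of the 6 libraries.

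Pkm (gene 18746) encodes pyruvate kinase, the last enzyme of glycolysis. It was at 4701, 4788 and 4699 CPM in Con and at 5032, 5209.8 and 5272 CPM in EX. The groups did not overlap, and the rise was 9.34% (log2 difference 0.13 ± 0.03, adjusted p = 0.0038). The call was lost without EX replicate 3 (adjusted p = 0.057) and on TPM, where the difference was 0.04 (adjusted p = 0.45).

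Gpd1 (gene 14555) and Gpd2 (gene 14571) encode the cytosolic and the mitochondrial enzyme of the glycerol phosphate shuttle, which carries electrons from glycolysis into mitochondria. Gpd1 was at 702, 695 and 673 CPM in Con and at 784, 806 and 780.0 CPM in EX. It rose by 14.5% without overlap (log2 difference 0.20 ± 0.03, adjusted p = 1.1e-04), and on TPM the difference was 0.10 (adjusted p = 0.052). Gpd2 lay between 313 and 328 CPM in Con and between 330.1 and 334 CPM in EX, and its log2 difference of 0.05 ± 0.04 did not pass (adjusted p = 0.40).

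**Figure D2:**
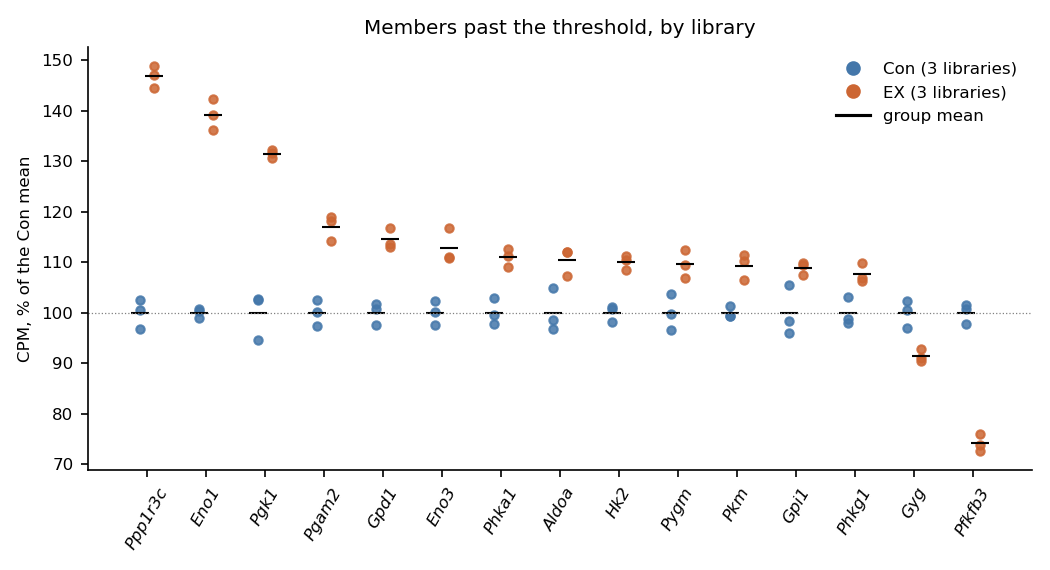
Each point is 1 library, with the CPM of a member as a percent of its Con mean, for the 15 members past the threshold in order of their fold change, and black lines are group means. The Con and EX libraries of Ppp1r3c, Eno1, Pgk1 and Pfkfb3 lie farthest apart, while those of Gpi1 and Phkg1 come close to each other.

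In glycogen metabolism, 4 of 11 members (36.4%) were called higher and 1 (9.09%) lower, and the median log2 fold change was 0.04. Over all genes tested, 9.11% were called higher and 8.8% lower. Among genes with a mean of at least 100 CPM, 23.1% and 13.2% were. The largest change of all tested members was in Ppp1r3c (gene 53412), which encodes PTG, a subunit that brings protein phosphatase 1 to glycogen and so favours synthesis. It was at 236, 231 and 223 CPM in Con and at 342, 338 and 332 CPM in EX. The lowest EX value stood far above the highest Con value, and the rise was 46.9% (log2 difference 0.56 ± 0.04, adjusted p = 7.6e-12). Ppp1r3a (gene 140491), the targeting subunit typical of skeletal muscle, ranged from 557 to 632 CPM with overlapping groups (log2 difference 0.004 ± 0.04, adjusted p = 0.96). The difference between the changes of the 2 subunits was not tested.

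On the breakdown side, Pygm (gene 19309), the muscle phosphorylase whose loss causes McArdle disease, was at 10687, 10279 and 9966 CPM in Con and at 11025, 11592 and 11291 CPM in EX. It rose by 9.62% without overlap (log2 difference 0.13 ± 0.03, adjusted p = 0.0042), and on TPM its difference was 0.04 (adjusted p = 0.43). The brain form Pygb (gene 110078) was at 9.25, 9.86 and 8.15 CPM in Con and at 9.78, 11.3 and 9.91 CPM in EX, with overlap (log2 difference 0.19 ± 0.11, adjusted p = 0.24).

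Phosphorylase kinase activates phosphorylase when calcium or adrenaline signals arrive. Its muscle alpha subunit Phka1 (gene 18679) was at 1354, 1286 and 1311 CPM in Con and at 1482, 1465 and 1437 CPM in EX. It rose by 11.0% without overlap (log2 difference 0.15 ± 0.03, adjusted p = 0.0016), with counts that were not whole in any library, and on TPM its difference was 0.06 (adjusted p = 0.29). The catalytic subunit Phkg1 (gene 18682) was at 797, 758 and 764 CPM in Con and at 849, 826 and 821 CPM in EX. The rise of 7.62% (log2 difference 0.11 ± 0.03, adjusted p = 0.029) was the weakest call, kept only without Con replicate 1 and lost when any of the other 5 libraries was left out, with adjusted p-values up to 0.15. On TPM its difference was 0.002 (adjusted p = 0.97). The beta subunit Phkb (gene 102093) lay between 616 and 628 CPM in Con and between 634 and 639 CPM in EX (log2 difference 0.04 ± 0.03, adjusted p = 0.50).

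Gyg (gene 27357) encodes glycogenin, the protein primer on which a glycogen particle starts. It was at 369, 376 and 357 CPM in Con and at 335, 332 and 341 CPM in EX, all EX values below all Con values. It fell by 8.56% (log2 difference -0.13 ± 0.04, adjusted p = 0.012), and the call was lost without Con replicate 2 (adjusted p = 0.071) or EX replicate 2 (adjusted p = 0.053). Gys1 (gene 14936), muscle glycogen synthase, was at 690.4, 670.5 and 642 CPM in Con and at 616, 638 and 625 CPM in EX. Its groups did not overlap either, but the log2 difference of -0.09 ± 0.04 did not pass (adjusted p = 0.071). It passed on TPM (-0.18, or -0.09 relative to all genes, adjusted p = 0.009), with the scaling without the 20 most abundant genes (adjusted p = 0.018), with the filter at 5 FPKM (adjusted p = 0.028) and without Con replicate 3 (adjusted p = 0.025). Gbe1 (gene 74185), the branching enzyme, and Ugp2 (gene 216558), which makes the UDP-glucose that synthase uses, did not pass (adjusted p = 0.79 and 0.59).

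Because the zero line of small changes depended on the scaling, linked enzymes were also set against each other within a library, on TPM, which is per length. The ratio does not depend on the scaling. With 3 mice against 3, the two-sided exact permutation test cannot give a p under 0.1, and all 4 ratios reached that value (p = 0.1, adjusted over the 4 ratios 0.1). The log2 ratio of Gys1 to Pygm, synthesis to breakdown, was -4.35, -4.34 and -4.36 in Con and -4.56, -4.58 and -4.57 in EX. The difference of -0.22 was many times the spread of 0.01 (SD) within either group. The ratio of Hk2 to the transporter Slc2a4 was -1.95, -1.85 and -1.77 in Con and -1.69, -1.71 and -1.68 in EX, a difference of 0.16. Gpd1 to Gpd2 was 2.26, 2.20 and 2.14 in Con and 2.35, 2.37 and 2.33 in EX, a difference of 0.15. Fbp2 to Pfkm, which run opposite reactions, was -5.46, -5.47 and -5.45 in Con and -5.40, -5.41 and -5.33 in EX, a difference of 0.08. In none of the 4 ratios did the groups overlap. The ratios use the same genes and libraries as the values above, and how often ratios of other gene pairs separate was not worked out.

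**Figure D3:**
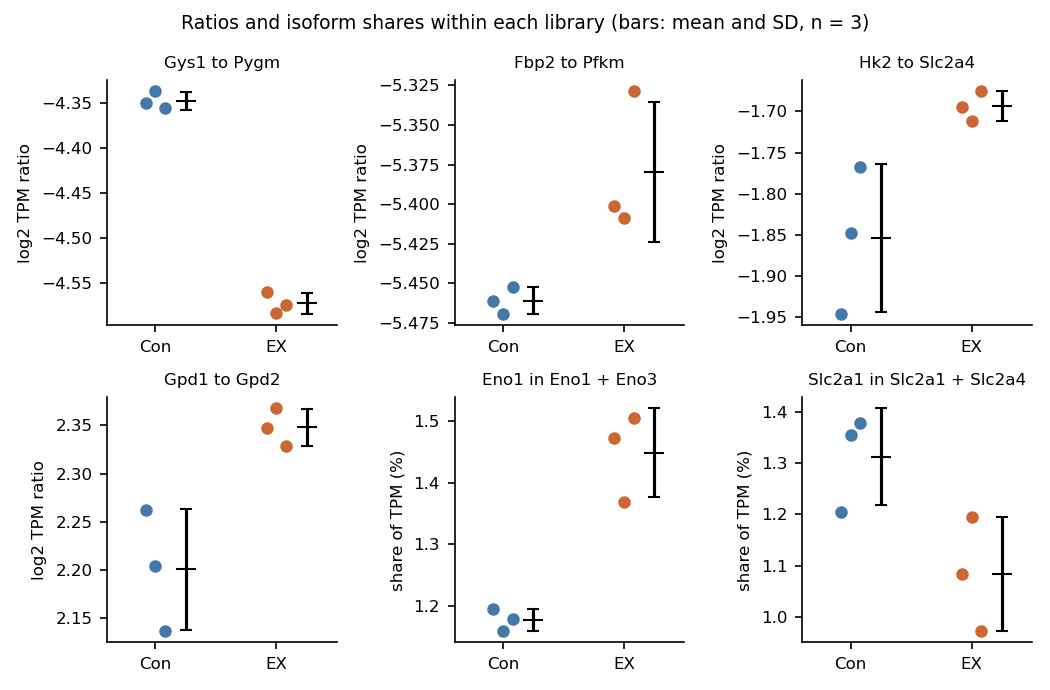
The first 4 panels give the log2 ratio of TPM between linked enzymes in each library, and the last 2 give the percent of summed TPM held by Eno1 and by Slc2a1 among their isoforms, with group means and SD (n = 3). Con and EX libraries are apart in every panel, and the gap is widest against the spread for Gys1 to Pygm. The axes do not start at 0.

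The make-up of isoforms was read as the share of the non-muscle form in the summed TPM of its group. Eno1 held 1.19%, 1.16% and 1.18% of enolase TPM in Con and 1.47%, 1.37% and 1.51% in EX (exact permutation p = 0.1, adjusted over 7 shares 0.23). Slc2a1 held 1.20%, 1.35% and 1.38% of the TPM of both transporters in Con and 1.08%, 1.20% and 0.972% in EX (exact permutation p = 0.1, adjusted 0.23). The shares of Con replicate 1 and EX replicate 2 lay next to each other. Aldoc held 0.00127% ± 0.000384 (SD, n = 3) of aldolase TPM in Con and 0.00314% ± 0.000658 in EX, also without overlap (exact permutation p = 0.1, adjusted 0.23). The shares of Hk1 (3.92% and 3.72%), Pfkl with Pfkp (0.273% and 0.257%), Pgam1 (0.417% and 0.406%) and Pygb (0.0638% and 0.0662%) overlapped between Con and EX, with exact permutation p-values of 0.5, 0.4, 0.7 and 0.5. Muscle forms thus held nearly all of the transcripts of these enzymes in both groups.

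Of the 2 glucose transporters, neither passed. Slc2a4 (gene 20528), or GLUT4, the transporter that insulin and contraction bring to the surface of the fibre, was at 1008, 913 and 887 CPM in Con and at 916, 946 and 928 CPM in EX. The groups overlapped and the log2 difference was -0.01 ± 0.04 (adjusted p = 0.91). Slc2a1 (gene 20525), or GLUT1, was at 11.2, 11.5 and 11.4 CPM in Con and at 9.15, 10.4 and 8.32 CPM in EX. All EX values were lower, and the log2 difference of -0.29 ± 0.10 just missed the threshold (adjusted p = 0.051). It passed on TPM (-0.38, or -0.29 relative to all genes, adjusted p = 0.017), with the scaling without the 20 most abundant genes (adjusted p = 0.032) and without EX replicate 2 (adjusted p = 0.024). GLUT1 is known from endothelium and nerve sheath, and the endothelial and Schwann cell marker sums given above were lower in EX as well. Their part in the values of Slc2a1 was not tested.

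In the control of fructose bisphosphate, 1 of 5 members was called, and it was lower. Over all genes tested, 8.8% were called lower. Pfkfb3 (gene 170768) encodes the isoform of the bifunctional enzyme with the strongest kinase activity, which makes the sugar bisphosphate that activates phosphofructokinase. It was at 1292, 1245 and 1283 CPM in Con and at 967, 939 and 924 CPM in EX. The gap between the groups was far larger than the spread within either. The decrease was 25.9% of the Con level, and the log2 difference was -0.43 ± 0.03 (adjusted p = 1.6e-10). Pfkfb1 (gene 18639), the form of liver and muscle, was at 84.6, 75.4 and 77.7 CPM in Con and at 75.1, 70.5 and 71.2 CPM in EX. These groups did not overlap by a narrow margin, and the log2 difference of -0.13 ± 0.05 did not pass (adjusted p = 0.065). It passed on TPM (-0.25, or -0.16 relative to all genes, adjusted p = 0.019), with the filter at 5 FPKM (adjusted p = 0.037), with the scaling without the 20 most abundant genes (adjusted p = 0.026) and without Con replicate 2 (adjusted p = 0.041). Pfkfb2, Pfkfb4 and Fbp2, the muscle fructose bisphosphatase, had log2 differences of -0.05, -0.03 and 0.01, and none passed (adjusted p = 0.66, 0.66 and 0.92).

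Compared per length, the members spanned a wide range of levels. The means over the 6 libraries were 24390 TPM for Aldoa, 15380 TPM for Gapdh and 8579 TPM for Eno3, and 9 members exceeded 1000 TPM. Pygm, Pgam2, Pfkm, Pkm, Tpi1 and Pgk1 completed these 9. At the other end, 7 members lay under 10 TPM, down to 3.51 TPM for Pfkp and 0.543 TPM for Aldoc. Ppp1r3c and Eno1, with the largest rises among tested members, were of middle level at 172 and 114 TPM.

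The summed level of each group depended on the scale, except for fructose bisphosphate control. Summed over the glycolytic members, TPM was 65937 ± 2179 (SD, n = 3) in Con and 67196 ± 407 in EX, or 6.59% and 6.72% of all TPM, with overlap (exact permutation p = 0.4). Summed CPM of the same members was 54367 to 58496 in Con and 59425 to 61784 in EX, without overlap, and 7.82% higher in EX, against 1.91% on TPM. The glycogen members summed to 8608 ± 156 TPM in Con and 8694 ± 25.3 TPM in EX, again with overlap (exact permutation p = 0.4), and 1.004% higher in EX. On CPM they summed to 15535 to 16239 in Con and 16895 to 17297 in EX, without overlap and 7.74% higher. Both sums thus separated on CPM and not on TPM, and on FPKM they separated as well, by 4.45% for glycolysis and 3.52% for glycogen. The glucose transporters summed to 569 ± 33.0 TPM in Con and 528 ± 0.965 TPM in EX, without overlap (exact permutation p = 0.1, adjusted over 4 sums 0.2). On CPM these overlapped, at 898 to 1019 in Con and 925 to 957 in EX, and the difference was -0.858% in place of -7.10%. Fructose bisphosphate control summed to 652 ± 14.9 TPM in Con and 505 ± 12.5 TPM in EX (exact permutation p = 0.1, adjusted 0.2), and it was lower without overlap on each scale, with a difference of -22.6% on TPM and -21.9% on CPM. Most of this drop was that of Pfkfb3 alone, at 419 ± 9.43 TPM in Con and 295 ± 10.6 TPM in EX. The other 4 members were not called by edgeR. For the sums that separated, the exact permutation p was 0.1, the smallest that 3 mice against 3 can give.

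**Figure D4:**
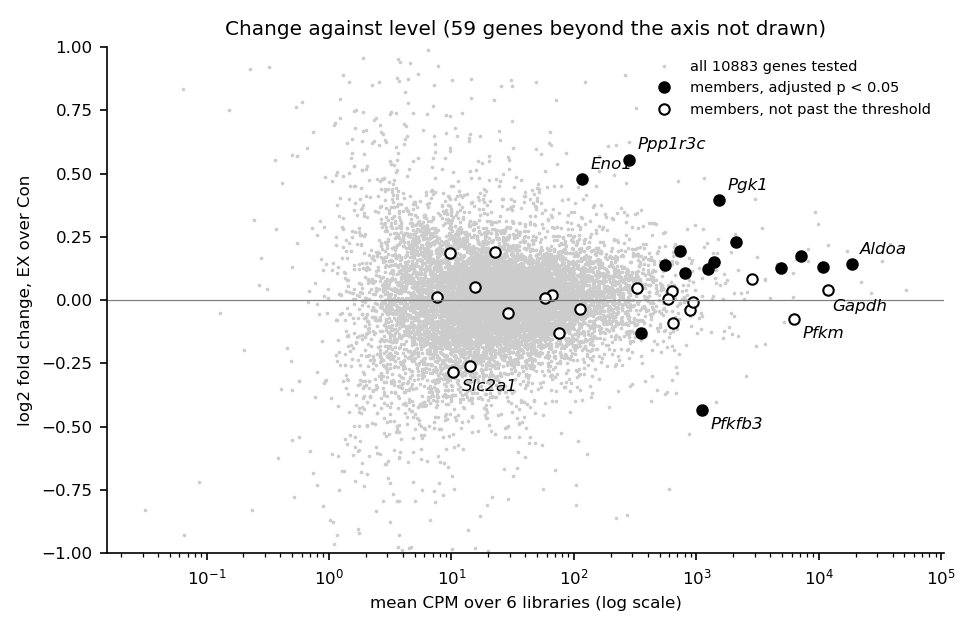
The log2 fold change of EX over Con is plotted against the mean CPM over 6 libraries on a log axis, with the 10883 tested genes in grey (59 beyond the axis are not drawn) and the 35 tested members as circles, filled where the adjusted p-value was under 0.05. The filled circles lie to the right of 100 CPM, and Pfkfb3 and 1 other are below 0.

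Other genes of the pathway were taken from lists. Of 18 tested further genes of glycogen metabolism, 5 were called higher and 2 lower, with a median log2 fold change of 0.10. Over all genes tested, 9.11% were called higher and 8.8% lower. The phosphoglucomutase that joins glycogen to glycolysis, listed as Pgm2 with gene number 72157 and named Pgm1 in RefSeq, was at 1773, 1923 and 1896 CPM in Con and at 2219, 2237 and 2252 CPM in EX (log2 difference 0.26 ± 0.03, adjusted p = 1.8e-06). Stbd1, which tethers glycogen to membranes, was at 56.7, 58.4 and 59.6 CPM in Con and at 79.8, 80.8 and 78.3 CPM in EX (log2 difference 0.45 ± 0.05, adjusted p = 3.2e-08). In neither of these genes did the groups overlap.

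Among 8 tested further glycolysis genes, Bpgm was called higher. Bpgm, which makes bisphosphoglycerate and is best known from red cells, was at 94.5, 94.7 and 97.0 CPM in Con and at 109, 111 and 112 CPM in EX (log2 difference 0.22 ± 0.04, adjusted p = 4.2e-04). Of 5 tested red cell markers, only the globin gene Hba-a1 was called higher, at 69.8 to 73.8 CPM in Con and 75.6 to 87.4 CPM in EX. The other 4 were not called. The part of red cells in the values of Bpgm was not tested.

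The pentose phosphate pathway, which branches off glucose phosphate and supplies NADPH and ribose, had 5 of 9 tested genes called higher and none lower. Over all genes tested, 9.11% were called higher and 8.8% lower. The median log2 fold change of these 9 genes was 0.17. H6pd, a dehydrogenase of this pathway in the endoplasmic reticulum, was at 117, 109.6 and 105 CPM in Con and at 127, 133 and 126 CPM in EX (adjusted p = 5.5e-04). Rpia, ribose phosphate isomerase, rose from between 13.5 and 15.6 CPM to between 18.7 and 19.6 CPM (adjusted p = 0.0015), and Pgls, the lactonase, from between 8.97 and 9.97 CPM to between 12.0 and 13.1 CPM (adjusted p = 0.0023). None of these ranges overlapped.

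Of 10 tested genes for further glucose transporters and for transporter traffic, 1 was called in each direction, near the 9.11% and 8.8% of all genes tested. Tbc1d1, a brake on GLUT4 traffic that contraction relieves, was at 84.6, 92.6 and 88.6 CPM in Con and at 77.0, 74.6 and 75.6 CPM in EX (log2 difference -0.23 ± 0.05, adjusted p = 6.9e-04). Slc2a3, or GLUT3, rose by 18.8% (adjusted p = 0.045). Of 10 genes of glucose sensing transcription, Arrdc4 was called higher (log2 difference 0.48 ± 0.08, adjusted p = 6.1e-05) and Mlxipl, the sensor ChREBP, was called lower (-0.22 ± 0.05, adjusted p = 0.0024).

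Fibre types differ in their glycolytic capacity, and of 4 myosins that mark them, 1 was called higher and 2 lower. Myh7, the slow myosin, was at 0.933, 0.891 and 1.19 CPM in Con and at 99.5, 111 and 96.7 CPM in EX (adjusted p = 2.3e-26). Myh2, the myosin of fast oxidative fibres, was at 767, 743 and 755 CPM in Con and at 440.4, 457 and 452 CPM in EX (adjusted p = 1.4e-15). Myh4, the myosin of the most glycolytic fibres, was between 50464 and 51031 CPM in Con and between 50832 and 53906 CPM in EX, with overlap (adjusted p = 0.41). The part of these differences in the values of the glycolytic and glycogen genes was not tested, nor was which muscle each piece of tissue came from.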

How the data were processed

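Total RNA from hind leg muscle of 3 Con and 3 EX mice was sequenced by the authors as 150 bp paired-end reads on the DNBseq platform after removal of low-quality reads. The study's methods name HISAT and the GRCm39 assembly, whereas the submitters' processing notes list GRCm38.p6 with cutadapt, MultiQC and featureCounts. No gene positions were taken from either, and promoter windows are those of RefSeq on GRCm38.p6. For each gene and library, the authors deposited an estimated count with its FPKM and TPM in 1 table. In a library, 4.18% to 4.44% of the counts were not whole, and the 20 most abundant genes held 30.1% to 32.5% of them. The table also holds 6 columns of group means, which were not used.

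After TMM normalization, the rounded counts of Con and EX were compared by the quasi-likelihood test of edgeR 4.0.16 (R 4.3.3), with Benjamini-Hochberg adjustment over the 10883 of 16759 genes whose FPKM averaged 1 or more. SE is the log2 fold change divided by the root of the F statistic. CPM was computed from the counts and TMM factors (0.971 to 1.03), and 3 counts correspond to 0.185 to 0.217 CPM, for counting error only. The common biological coefficient of variation was 0.0328. Ratios, shares and sums used the deposited TPM values and two-sided exact permutation tests in scipy 1.17.1. The scripts were tested on simulated data. No 2 libraries agreed within sampling noise (chi-square per degree of freedom 1.79 to 4.19).

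All 36 members are named, with each library's values for those past the threshold and for isoform groups. From the further lists, which were written from general knowledge of the pathway and the tissue, at most 3 genes with the smallest adjusted p are named, besides myosins and Hba-a1, which were chosen after their values were seen. Acta1 was given as a check of the tissue. The members and lists were chosen with earlier results of these data known. The limit of 100 CPM for the background of abundant genes was also set after the values were seen. Alternatives were DESeq2 1.42.0, median-ratio scaling, totals without the 20 most abundant genes, no filter or at least 5 FPKM, limma 3.58.1 on log2(FPKM + 0.1), log2(FPKM + 1) and log2(TPM + 0.1), a replicate block, and each library left out. Fold changes on log2(value + pseudocount) understate those of low genes. The sources used here give no batch. Some items of the further lists are withheld for evaluation and are not reported here.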

Additional observations from a re-analysis of the deposited data

How the results depend on the processing

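The number of genes called was 1949, and 1228 with DESeq2. It was between 1344 (without EX replicate 3) and 1857 when 1 library was left out. Of the members, 13 higher and 2 lower became 5 and 6 with limma on log2(FPKM + 0.1), 5 and 6 with log2(FPKM + 1), 4 and 6 with log2(TPM + 0.1), 12 and 4 with the filter at 5 FPKM, and 12 and 7 with the scaling that leaves out the 20 most abundant genes. The share of calls that were higher was 50.8%, against 38.0% under that scaling, 28.4% and 28.5% with FPKM, and 16.8% with TPM. Leaving out 1 library gave 10 (EX replicate 3) to 16 (Con replicate 1) members higher and 2 to 3 lower. Of the 15 called members, 11 passed without each library in turn and 6 passed on TPM, all 6 in the same direction. On TPM all genes shifted by a median of -0.09, on FPKM by -0.06 with a pseudocount of 0.1 and -0.05 with 1, and under the scaling without the most abundant genes by -0.03.

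The replicate numbers did not pair the samples, since same-numbered mice had correlations of -0.08, -0.05 and -0.03 over genes. With a replicate block, 1782 genes, 13 members higher and 3 lower were called, the third being Pfkl (-0.27, adjusted p = 0.040).

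The log2 fold changes that turned sign belonged to members that were not called. On TPM they were -0.02 for Hk1, -0.11 for Pfkp, -0.01 for Tpi1, -0.05 for Gapdh, -0.04 for Gpd2, -0.07 for Gbe1, -0.04 for Phkb, -0.09 for Ppp1r3a and -0.09 for Fbp2, but relative to the median of all genes, itself at -0.09, Pfkp alone of these 9 turned sign (-0.01). With either FPKM pseudocount they were -0.02 for Gapdh, -0.01 for Gpd2, -0.03 for Gbe1, -0.01 for Phkb, -0.05 for Ppp1r3a and -0.05 for Fbp2, and for Pfkp -0.07 with 0.1 and -0.05 with 1. Scaled without the 20 most abundant genes they were -0.01 for Pfkp, -0.002 for Gbe1, -0.02 for Ppp1r3a and -0.01 for Fbp2, and with the filter at 5 FPKM -0.01 for Ppp1r3a and -0.005 for Fbp2. With 1 library left out, the ranges that crossed 0 were -0.02 to 0.06 for Pfkp, -0.02 to 0.13 for Gapdh, -0.08 to 0.01 for Ugp2, -0.05 to 0.04 for Ppp1r3a, -0.05 to 0.04 for Slc2a4, -0.01 to 0.03 for Fbp2 and -0.09 to 0.02 for Pfkfb2. The difference in share moved between -0.336 and 0.00703 percentage points for Hk1 and between -0.0230 and 0.00981 for Pgam1. The other shares and the 4 ratios and 4 sums kept their direction with FPKM, with CPM and without each library, but the sizes of 3 sums did not hold, at 1.91% on TPM and 7.82% on CPM for glycolysis, 1.004% and 7.74% for glycogen and -7.10% and -0.858% for the transporters, with the change in overlap given above. The TPM differences of the glycolysis and glycogen sums also shrank without Con replicate 3 and grew without Con replicate 1. At 3 mice a group, the exact tests of ratios, shares and sums cannot pass 0.05.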
